A study of Mus musculus with 10 samples.

Results

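The genes described here are 50 genes of the muscle sarcomere and the contractile apparatus, with the enzymes, calcium-handling proteins and transcription factors that go with them. They were chosen by name, with earlier results of these data known. Each was read from the probe sets whose only gene symbol in the platform annotation was that gene, taking the probe set with the highest mean signal. By their best-known site of use, 25 were grouped as skeletal, 11 as cardiac (several of them also in slow skeletal fibres), 6 as shared between muscle types and 8 as smooth muscle genes. All 50 were on the array, and 44 of them passed a filter on low signal, among 14087 genes tested in all. The study measured sorted medullary thymic epithelial cells (mTECs) on 10 Affymetrix arrays. KO 6 to KO 10 held RNA from 5 samples labelled Fezf2 KO and WT 1 to WT 5 RNA from 5 wild-type samples, all from C57BL/6 thymus at 3 weeks of age. Cells of both genotypes had been sorted as CD45-, EpCAM+ and CD80hi. The labels name no deleted exon, allele, promoter or Cre line for the KO, and they do not say whether each array came from a different mouse. The p-values thus rest on array-to-array spread alone, some of which may be technical.

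Sarcomeres are built of thick filaments of myosin heavy and light chains and thin filaments of actin, tropomyosin and troponin. The giant protein titin spans them, and alpha-actinin anchors them at the Z-disc. Fast, slow, embryonic and cardiac muscle use different members of these families, and the factors Myod1, Myf5, Myog and Myf6 drive the skeletal programme. In the thymic medulla, epithelial cells express genes of many organs so that developing T cells meet the products, and small numbers of cells there carry muscle genes. The muscle acetylcholine receptor, whose alpha subunit is encoded by Chrna1, is the main autoantigen of myasthenia gravis. Fezf2 is a zinc finger transcription factor of these epithelial cells, and the comparison asks which genes depend on it.

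Signals are the deposited linear intensities, listed below in array order, KO 6 to KO 10 and WT 1 to WT 5. Since probe sets differ in brightness, a level is compared only between arrays, for the same gene or the same summed list of markers. Such sums are weighted toward the brightest probe sets. A log2 change is KO minus WT of log2(signal + 16), with its standard error (SE), and understates the change of dim genes. Fezf2 itself was 13.8, 18.3, 13.2, 12.1 and 17.7 on the KO arrays and 5240, 5054, 5895, 5432 and 5757 on the WT arrays, so every array matched its label. Epcam lay between 7456 and 7985 on KO and between 6994 and 7564 on WT arrays. Aire, a regulator of peripheral antigens in mTECs, had 4368 on KO 6, 6899 to 7203 on the other KO arrays and 6966 to 9885 on WT arrays. Both belong to a list of 9 gate and mTEC markers, all tested. At an adjusted p under 0.05 Aire was lower and Tnfrsf11a higher, beside 16.2% lower and 13% higher over all genes. Tnfrsf11a had 676 to 771 in KO and 380 to 450 in WT cells (log2 change 0.76), without overlap. KO 6 and WT 1 stood apart from their groups. Their 18S rRNA probe sets averaged 3762 on KO 6 against 765 to 1154 on the other KO arrays, and 3445 on WT 1 against 1226 to 1774 on the other WT arrays. The poly-A spike-ins averaged 759 on KO 6 and 145 to 304 on the other KO arrays, and 537 on WT 1 and 115 to 422 on the other WT arrays. Psmb11, of the list of gate and mTEC markers, had 34.3 on KO 6 and 190 to 288 on the other KO arrays. It had 69.4 on WT 1 and 104 to 173 on the other WT arrays.

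Muscle genes divided in Fezf2 KO cells, with more of them lower than higher, as was the case over all genes. Of the 44 tested, 10 were lower, 4 were higher and 30 did not pass an adjusted p of 0.05 (limma, Benjamini-Hochberg over all 14087 genes). Over all genes 16.2% were lower and 13% higher, so the members' shares of 22.7% and 9.09% are to be read against a background in which many genes changed. Because the members were chosen with earlier results known, these shares are not an unbiased comparison. The median log2 change was -0.09 for the members and -0.03 for all genes. All 5 KO arrays were below all 5 WT arrays for 9 members (12% of all genes) and above them for 2 members (10.1% of all genes). In either direction, 14 of the 44 members and 29.2% of all genes passed the threshold. The lower genes were Myh3, Actn3, Mybph, Chrna1, Myog, Tnnt1, Actc1, Myl2, Myl4 and Acta2, and the higher genes were Myl1, Mybpc2, Myl7 and Ttn. In sorted bulk cells, fewer cells that carry a transcript and less of it per cell cannot be told apart.

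**Figure D1:**
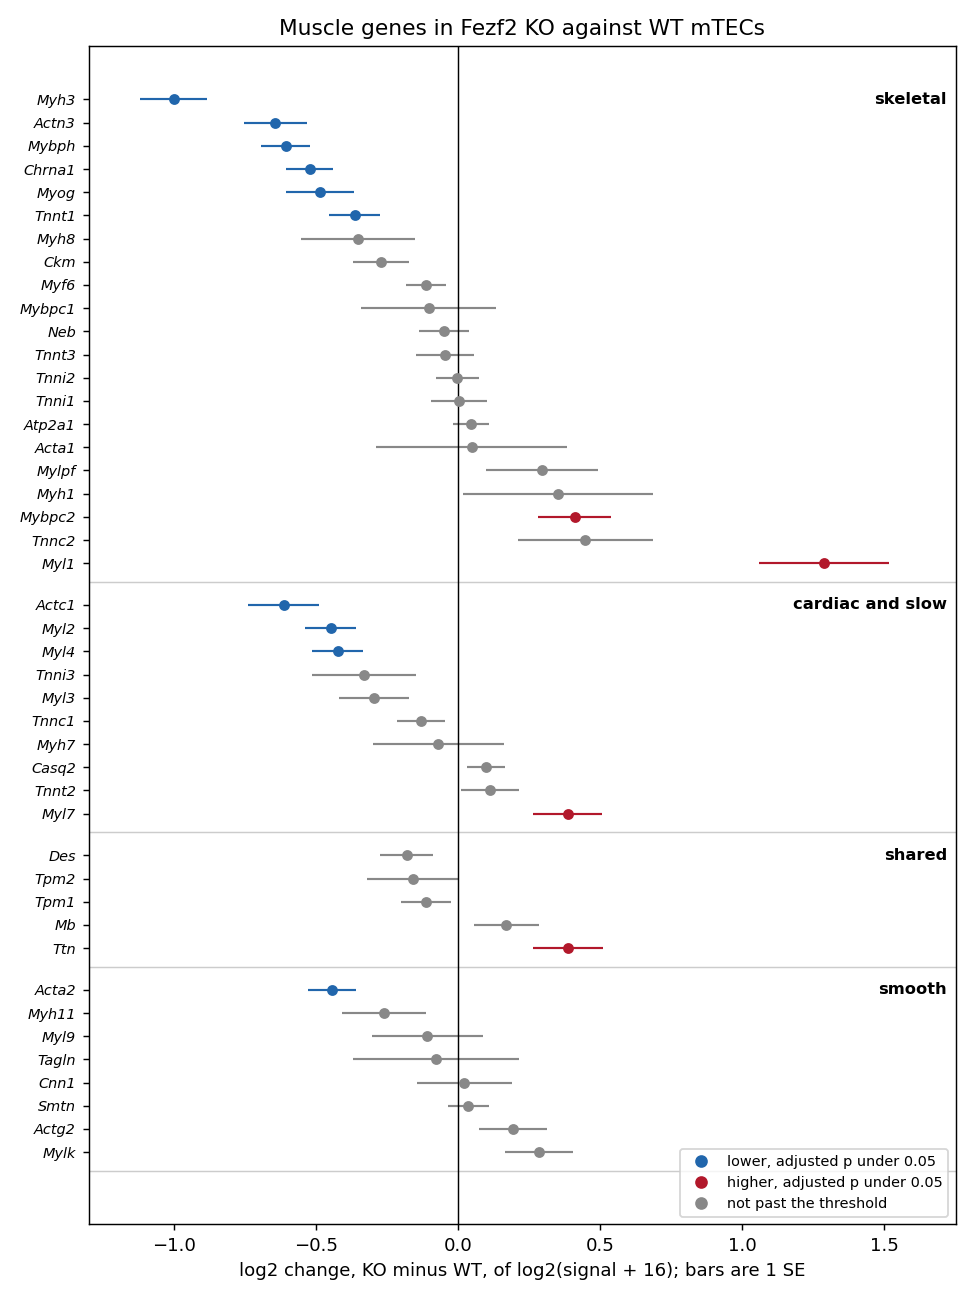
Log2 change of each of the 44 muscle genes tested, KO minus WT on the log2(signal + 16) scale, with bars of 1 SE, in 4 classes. Blue points are the 10 genes lower and red points the 4 genes higher at an adjusted p under 0.05, from Myh3 at -1.0 to Myl1 at 1.29.

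Among the skeletal genes 6 of 21 tested were lower (28.6%) and 2 higher (9.52%), beside 16.2% and 13% of all genes. The other 13 had log2 changes between -0.35 and 0.45. Of the myogenic factors only Myog, myogenin, which drives terminal differentiation of myoblasts, was both tested and changed. Its signals were 143, 121, 137, 193 and 172 in KO cells, against 247, 234, 179, 209.9 and 226 in WT cells. Only KO 9 reached into the WT range, and the log2 change was -0.49 (SE 0.12, adjusted p = 0.00889). Myf6, a factor of later fibre differentiation, had 20.5 to 23.0 in KO and 19.0 to 29.9 in WT cells (log2 change -0.11, adjusted p = 0.25), close to the filter level of 21.5 to 22.1. Myod1, which commits cells to the skeletal lineage, failed the filter, with 16.8 to 19.7 in KO and at most 21.8 in WT cells.

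Chrna1, the alpha subunit of the muscle acetylcholine receptor, was lower in every KO sample. It had 68.1, 60.9, 61.2, 59.3 and 63.97 in KO cells, against 104, 109, 90.2, 104 and 80.0 in WT cells. The KO arrays lay close together and below the lowest WT array, WT 5, with means of 62.7 ± 3.46 in KO and 97.4 ± 12.1 in WT cells (SD, n = 5 each). The log2 change was -0.52 (SE 0.08, adjusted p = 5.5e-04), and it kept its call in all 10 fits that left out an array.

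The sequences before the start sites of a few of these genes are shown because muscle factors are known to bind short motifs there. Members of the myogenin family bind E-boxes, spelled CANNTG, and serum response factor binds the CArG box of muscle actin genes. Each run holds the 250 bases before the annotated start, 5′ to 3′ on the gene's own strand, from RefSeq on GRCm38.p6. Capitals mark E-boxes in Myog (chr1:134289754-134290003, plus strand), Chrna1 (chr2:73580339-73580588, minus strand), Myh3 (chr11:67078050-67078299, plus strand) and Myl1 (chr1:66945057-66945306, minus strand). In Actc1 (chr2:114052876-114053125, minus strand) they mark the CArG box.
Myog: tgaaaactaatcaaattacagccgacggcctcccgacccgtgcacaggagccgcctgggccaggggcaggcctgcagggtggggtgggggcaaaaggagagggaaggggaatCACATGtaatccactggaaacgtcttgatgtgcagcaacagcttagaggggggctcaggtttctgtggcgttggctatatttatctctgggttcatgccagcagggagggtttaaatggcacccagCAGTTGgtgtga
Chrna1: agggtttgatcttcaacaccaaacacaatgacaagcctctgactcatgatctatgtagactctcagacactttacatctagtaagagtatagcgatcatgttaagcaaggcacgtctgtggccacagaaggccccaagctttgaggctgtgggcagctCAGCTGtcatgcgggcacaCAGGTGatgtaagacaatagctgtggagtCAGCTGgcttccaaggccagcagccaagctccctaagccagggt
Myh3: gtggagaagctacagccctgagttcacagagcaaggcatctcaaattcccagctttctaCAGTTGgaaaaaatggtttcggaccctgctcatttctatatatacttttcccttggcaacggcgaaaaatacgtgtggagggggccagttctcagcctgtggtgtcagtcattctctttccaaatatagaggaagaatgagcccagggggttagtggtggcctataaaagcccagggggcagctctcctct
Myl1: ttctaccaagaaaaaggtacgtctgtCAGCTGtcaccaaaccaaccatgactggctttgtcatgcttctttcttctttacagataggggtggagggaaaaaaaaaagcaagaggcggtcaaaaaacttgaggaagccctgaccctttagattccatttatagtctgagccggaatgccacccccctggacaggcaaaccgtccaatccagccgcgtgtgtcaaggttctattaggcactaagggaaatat
Actc1: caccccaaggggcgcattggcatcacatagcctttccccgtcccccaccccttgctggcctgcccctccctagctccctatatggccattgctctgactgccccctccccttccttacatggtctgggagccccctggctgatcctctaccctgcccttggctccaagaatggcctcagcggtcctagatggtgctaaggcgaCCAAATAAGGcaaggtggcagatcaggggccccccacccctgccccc
Chrna1 had 3 E-boxes, of which 2 read CAGCTG, and the nearest began 44 bases before the start. Myog had 2 E-boxes, and Myh3 and Myl1 had 1 each. Such windows were found for 41 of the 50 genes (47 windows, some genes having several starts). An E-box CANNTG, which reads the same on both strands, was in 39 of the 47 windows and in 66.2% of the 32851 windows of all genes. Its form CAGCTG, a subset of these, was in 18 of 47 and in 13.0% of all windows, and in 11 of the 20 skeletal windows. It stood in 4 of the 10 windows of lower genes, 1 of the 4 of higher genes and 12 of the 28 of genes not past the threshold. The last 5 windows belong to genes that were not tested. A CArG box, searched on both strands, was in 5 of the 47 windows and in 1.5% of all. These are matches of letters and say nothing of whether a factor binds.

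Myosin heavy chains, the motors of the thick filament, were read for the embryonic, perinatal and adult fast fibre types. Myh3, the embryonic chain, fell furthest of all members, with 65.8, 103, 101, 119 and 94.1 in KO cells, against 206, 224, 184, 202 and 218 in WT cells. The groups were far apart, KO 6 being the lowest, and the log2 change was -1.0 (SE 0.12, adjusted p = 6.1e-05). Myh8, the perinatal chain, had 25.8 to 33.1 in KO cells and spread from 17.7 on WT 3 to 63.1 on WT 1 (log2 change -0.35, adjusted p = 0.213). Without WT 3 its log2 change was -0.54 and passed (adjusted p = 0.0162). Myh1, an adult fast chain, had 240.3 on KO 6, against 46.0 to 86.8 on the other KO and 38.8 to 73.2 on the WT arrays. Myh2, the adult chain of fast oxidative fibres, failed the filter, with 11.9 to 18.7 in KO and 18.5 to 21.6 in WT cells. In the fit without a filter Myh2 was lower.

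Of the 2 light chains of fast fibres, Myl1 rose and Mylpf did not pass. Myl1, the essential light chain, had 662, 235, 369.8, 276 and 289 in KO cells, against 139, 177, 112, 121 and 112 in WT cells. All KO arrays stood above all WT arrays, and the log2 change was 1.29 (SE 0.23, adjusted p = 0.0012). Without KO 6, the highest array, it was 1.06 (adjusted p = 2.1e-04). Mylpf, the regulatory light chain that pairs with it, had 798, 357, 415, 356 and 321 in KO cells, against 360.4, 381, 299, 334 and 342 in WT cells. Apart from KO 6 and KO 8 the groups lay in one range, and the log2 change of 0.29 did not pass (SE 0.20, adjusted p = 0.291); without KO 6 it was 0.07.

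The myosin binding proteins of the thick filament divided. Mybph, myosin binding protein H, had 24.3, 27.7, 26.7, 19.4 and 26.2 in KO cells, against 45.2, 41.5, 52.9, 54.2 and 38.2 in WT cells, giving a log2 change of -0.61 (SE 0.09, adjusted p = 2.6e-04). Its KO signals lay near the filter level, which 4 KO arrays passed. Mybpc2, the fast isoform of myosin binding protein C, had 66.5, 100.5, 75.8, 71.4 and 74.0 in KO cells, against 34.9, 57.0, 59.8, 58.6 and 63.5 in WT cells. It was higher on every KO array (log2 change 0.41, SE 0.13, adjusted p = 0.0304), but leaving out KO 7 raised the adjusted p to 0.0736 (log2 change 0.33) and leaving out KO 8 raised it to 0.0562 (0.42). Mybpc1, the slow isoform, was held between 75.7 and 101 in KO cells and ran from 52.6 on WT 1 to 182 on WT 3 (log2 change -0.10, SE 0.24, adjusted p = 0.778). Its other kept probe sets gave -0.22 and -0.26.

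In the thin filament and Z-disc of skeletal muscle, Actn3 and Tnnt1 fell. Actn3, the alpha-actinin of fast-fibre Z-discs, had 1507, 1946, 1722, 2159 and 2211 in KO cells, against 2425, 2927, 3246, 3172 and 3118 in WT cells. The groups did not overlap, KO 6 and WT 1 being the lowest array of each, and the log2 change was -0.64 (SE 0.11, adjusted p = 0.001). Tnnt1, slow troponin T, had 62.6, 75.1, 68.2, 73.6 and 57.5 in KO cells, against 79.7, 98.7, 82.7, 90.5 and 105 in WT cells, again without overlap, giving a log2 change of -0.36 (SE 0.09, adjusted p = 0.00877). The other troponins did not pass. Tnni1, the slow inhibitory subunit, had 432, 465, 466, 404 and 366 in KO cells, against 334, 444, 448, 477 and 434 in WT cells, with both means at 427 (SD 42.6 in KO and 54.7 in WT, n = 5 each). Tnni2, the fast inhibitory subunit, had 52.4 to 57.7 in KO and 44.5 to 63.0 in WT cells. Tnnt3, the fast tropomyosin-binding subunit, had a log2 change of -0.05, and Neb, the nebulin that runs along the thin filament, had -0.05. Acta1, skeletal alpha-actin, had 518, 145, 160.3, 157 and 119.7 in KO cells, against 175, 191, 120.4, 313 and 154 in WT cells. The KO 6 array stood above all others and WT 4 above the other WT arrays, and the log2 change was 0.05 (SE 0.34, adjusted p = 0.935) and -0.30 without KO 6.

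The genes of skeletal muscle energy and calcium supply showed no call. Ckm, muscle creatine kinase, had 64.1 to 84.0 in KO and 80.2 to 119 in WT cells, giving a log2 change of -0.27 (SE 0.10, adjusted p = 0.0582), and it passed without WT 1 (-0.30, adjusted p = 0.0498) or WT 5 (-0.32, adjusted p = 0.0384). Atp2a1, the calcium pump of fast fibres, was nearly level at 39.9 to 44.0 in KO and 35.2 to 46.3 in WT cells. Ryr1, the calcium release channel, failed the filter with 17.6 to 24.3 in KO and 20.04 to 23.8 in WT cells, as did Casq1, the calcium store protein calsequestrin, with 15.6 to 21.0 in KO and 18.7 to 21.8 in WT cells.

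**Figure D2:**
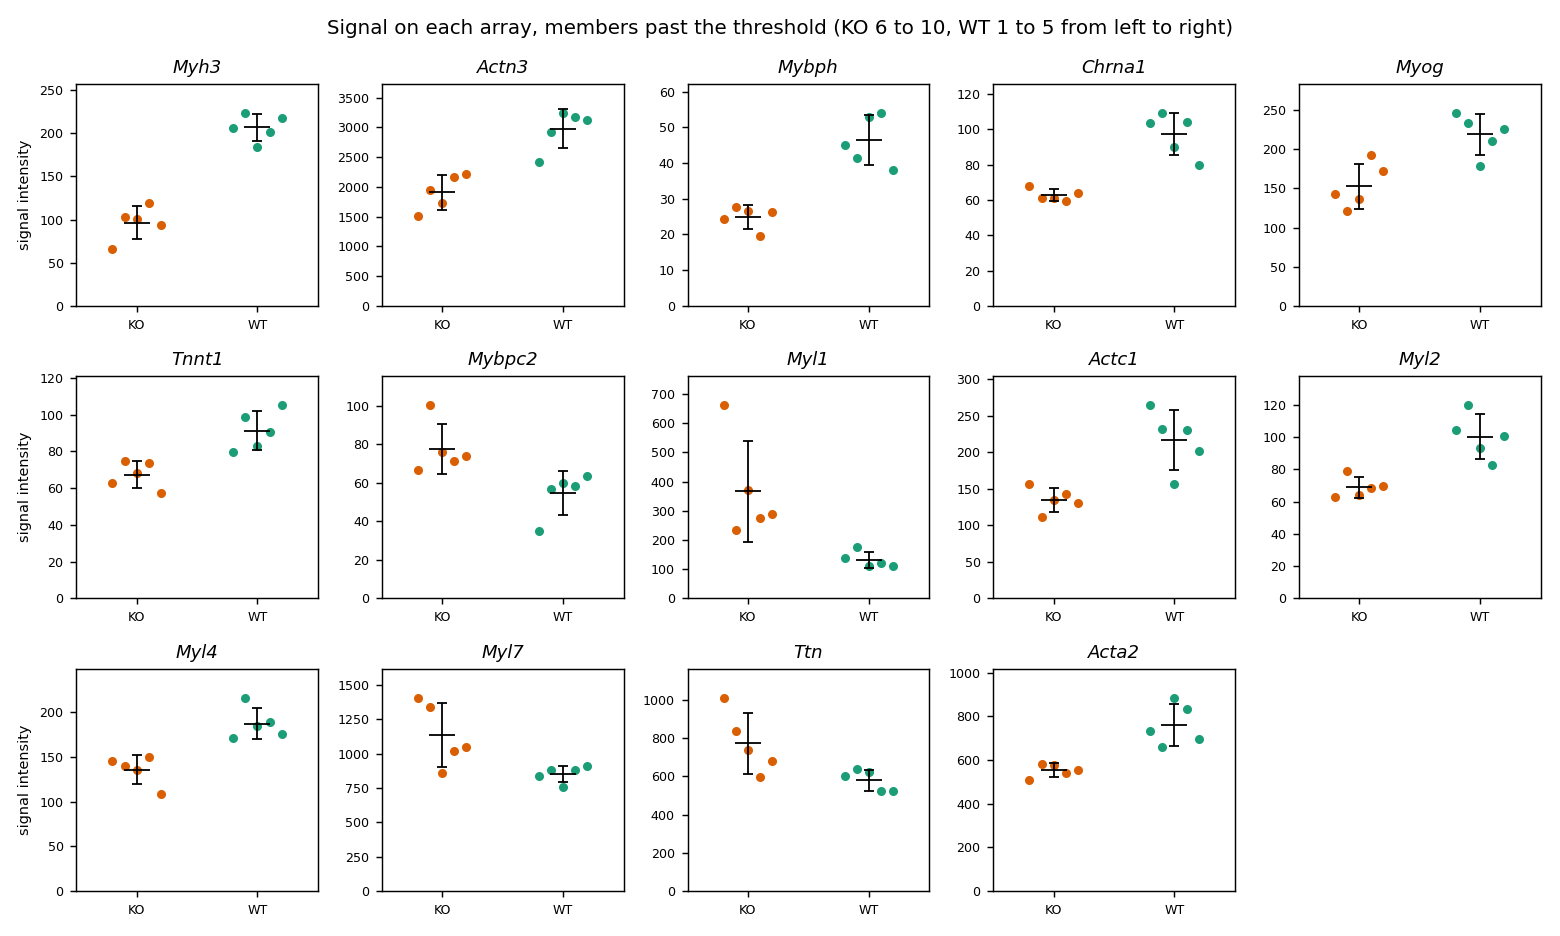
Signal intensity on each array for the 14 members past the threshold, KO arrays 6 to 10 left and WT arrays 1 to 5 right in each panel, with the mean and SD of 5 arrays in black and axes from 0. The groups are apart for 11 of the genes (Actc1 barely so), and KO 6 is the highest KO array for Myl1, Myl7 and Ttn and also for Chrna1 and Actc1.

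KO 6 was the highest of the 10 arrays for 6 of the 21 skeletal genes tested and the lowest for 3. Within the KO group it was the highest for 9 and the lowest for 6, the lowest including the fast-fibre genes Actn3, Mybpc2 and Tnni2. Tnnc2, the calcium-binding subunit of fast troponin, had 139, 55.8, 45.9, 48.8 and 49.4 in KO cells, against 55.2, 50.6, 24.9, 39.3 and 41.5 in WT cells. Its log2 change of 0.45 did not pass (SE 0.24, adjusted p = 0.18) and was 0.20 without KO 6. With WT 1 and KO 6 as a block it was 0.45 and passed (adjusted p = 0.0358). Myl1, Mylpf, Acta1, Myh1 and Tnnc2 were thus each at their highest on KO 6, at 1.79 to 3.23 times the next KO array. Embryonic Myh3 and fast Actn3 were at their lowest of all arrays there. Myl1 was the one gene of those 5 to be called with or without KO 6. The part of the 18S rRNA, spike-in and marker gene levels of KO 6 in these values was not tested. The arrays were also mixed for Xist, a transcript of the inactive X chromosome, with 26.9 on KO 6, 29.97 on KO 8 and 21.1 on WT 2 and 5304 to 6100.5 on the others. For Myl1, Mylpf and Myh1, KO 6 and KO 8 were the highest KO arrays and WT 2 the highest WT array. With Xist signal as a block the log2 change was 1.145 for Myl1 (adjusted p = 1.9e-04), 0.19 for Mylpf, 0.16 for Myh1, 0.36 for Tnnc2 and -0.08 for Acta1, and of these Myl1 alone passed.

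**Figure D3:**
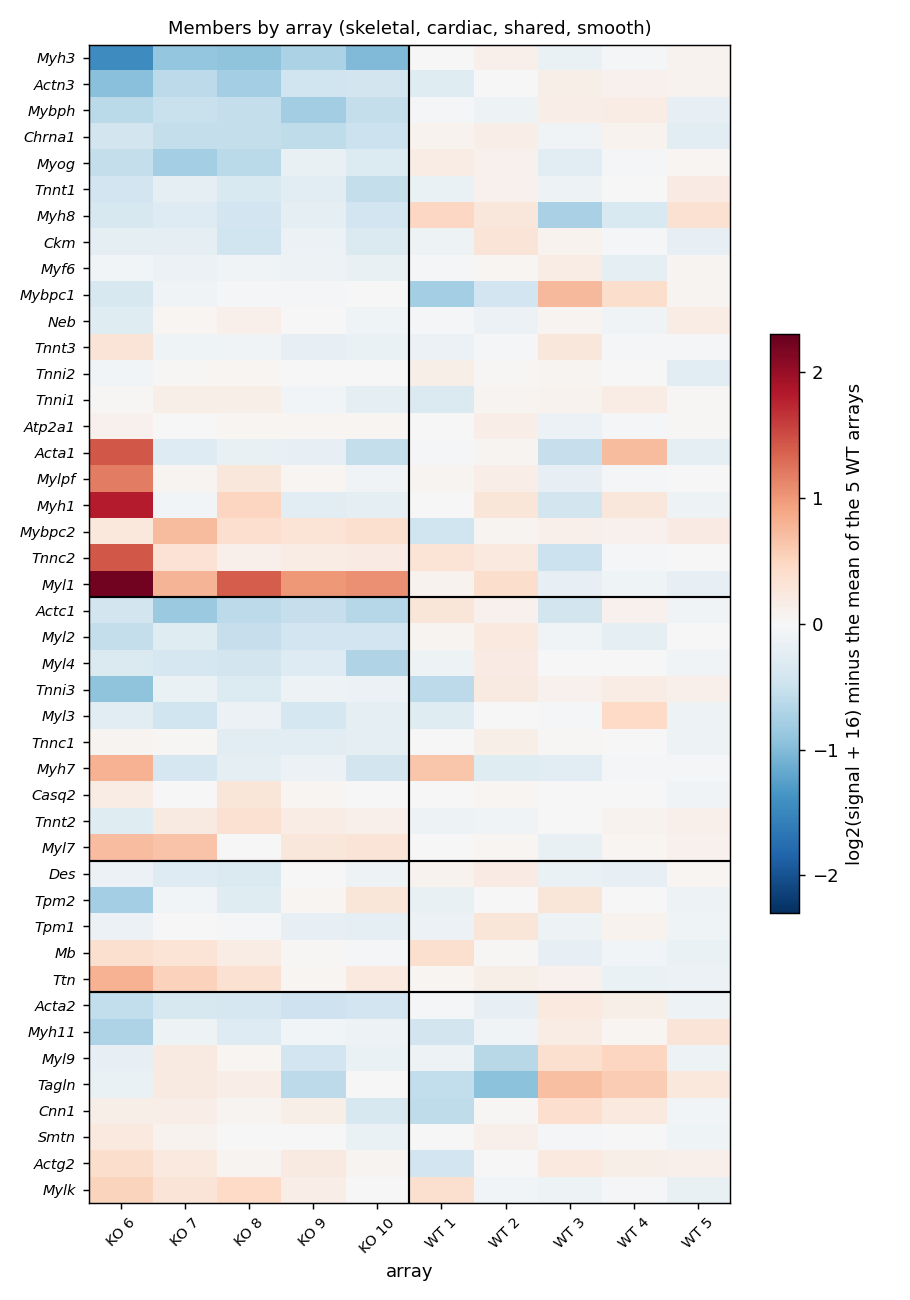
Log2(signal + 16) of the 44 genes tested on each array, minus the mean of the 5 WT arrays, KO arrays left of the WT arrays and classes divided by black lines. The column of KO 6 is red for Myl1, Myh1, Acta1, Tnnc2 and Mylpf, while Myh3, Actn3, Mybph and Chrna1 are blue on all 5 KO arrays.

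Among the cardiac genes 3 of 10 tested were lower and 1 higher, beside 16.2% and 13% of all genes. Actc1, cardiac alpha-actin, which is also used in developing skeletal muscle, had 156, 111, 135, 142 and 130.2 in KO cells, against 265, 232, 156, 231 and 202 in WT cells. KO 6 and WT 3 were all but equal, at 156.05 and 156.09, and elsewhere the groups were apart (log2 change -0.61, SE 0.12, adjusted p = 0.00288). Myl2, the regulatory light chain of ventricle and slow fibres, had 62.8, 78.9, 64.1, 68.7 and 69.6 in KO cells, against 104, 119.8, 93.3, 82.6 and 101 in WT cells, giving a log2 change of -0.45 (SE 0.09, adjusted p = 0.00288). Myl4, the essential light chain of atrium and embryonic muscle, had 145, 139.9, 136, 149.9 and 109 in KO cells, against 171, 217, 185, 189 and 175 in WT cells, giving a log2 change of -0.42 (SE 0.09, adjusted p = 0.00388). All KO arrays lay below all WT arrays for both light chains.

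Myl7, the atrial regulatory light chain, was the cardiac gene that rose. It had 1409.5, 1342, 857, 1019 and 1048 in KO cells, against 841, 879.6, 755, 878 and 911 in WT cells, with KO 8 inside the WT range. The log2 change was 0.39 (SE 0.12, adjusted p = 0.0314). This call was unstable: it was lost without WT 1, WT 2, WT 3, WT 4, KO 6 or KO 7, with log2 changes of 0.30 to 0.40 and adjusted p between 0.0501 and 0.0797.

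The other 6 cardiac genes had log2 changes from -0.33 to 0.11. Tnnt2, cardiac troponin T, had 539, 761, 838, 744 and 712 in KO cells, against 602, 622, 656, 697 and 714 in WT cells. KO 6 was the lowest of all arrays, and the log2 change was 0.11 (SE 0.10, adjusted p = 0.455) with KO 6 and 0.21 (adjusted p = 0.0421) without it. The probe set of Tnnt2 may match several transcripts, of the same gene or of others, as may a second one, which gave 0.12. Without such probe sets the log2 change was -0.09 (adjusted p = 0.777). Tnnc1, the calcium-binding troponin of heart and slow fibres, had 236, 229, 188, 186 and 189.7 in KO cells, against 223, 249, 229, 223 and 207 in WT cells, in overlapping ranges, giving a log2 change of -0.13 (SE 0.08, adjusted p = 0.265). Myl3, the essential light chain of ventricle and slow fibres, had 139, 119.9, 153, 125 and 145 in KO cells, against 137, 168, 166, 239 and 155 in WT cells. WT 4 was the highest array and WT 1 fell among the KO arrays; the log2 change was -0.30 (SE 0.12, adjusted p = 0.0895), and -0.37 without WT 1 (adjusted p = 0.0372). Its other probe sets gave -0.53 and -0.36.

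For Myh7 and Tnni3 the outlying arrays were KO 6 and WT 1. Myh7, a cardiac and slow-fibre myosin heavy chain, had 232, 94.0, 109, 114 and 90.5 in KO cells, against 206, 102, 104, 123 and 122 in WT cells. KO 6 and WT 1 were thus the high arrays of each group. Tnni3, cardiac troponin I, had 55.5, 106, 93.3, 109.8 and 108 in KO cells, against 73.9, 140.2, 130.1, 137 and 132 in WT cells, with the same arrays low. The log2 change of Tnni3 was -0.33 (SE 0.18, adjusted p = 0.201). With KO 6 and WT 1 as a block it was -0.33 and passed (adjusted p = 0.00159), and it also passed without WT 1 (-0.48, adjusted p = 0.033). Casq2, cardiac calsequestrin, had 42.6 to 55.5 in KO and 39.8 to 45.4 in WT cells. Myh6, another cardiac heavy chain, failed the filter at 15.5 to 19.3 in KO and 15.1 to 22.1 in WT cells.

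Of the 5 genes tested that are shared between muscle types, Ttn alone passed, where 29.2% of all genes did. Ttn, titin, had 1014, 838, 739.8, 599.9 and 680.2 in KO cells, against 600.2, 638, 622, 521 and 524 in WT cells. KO 9 lay within the WT range, and the log2 change was 0.39 (SE 0.12, adjusted p = 0.0325), with 0.29 without KO 6. Leaving out WT 4, WT 5, KO 7 or KO 8 ended the call, with log2 changes of 0.35, 0.35, 0.35 and 0.40 and adjusted p of 0.0796, 0.0763, 0.0776 and 0.0559. A dimmer probe set of Ttn gave 0.53 and the dimmest kept one -0.18, and the mean of the probe sets 0.25 (adjusted p = 0.0898).

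Tropomyosins, which lie along the thin filament and are not limited to muscle, showed no difference beyond their spread. Tpm2 had 2125, 3478, 2995, 3784 and 4442 in KO cells, against 3259.8, 3679.8, 4408, 3651 and 3364 in WT cells, with KO 6 the lowest of all arrays, giving a log2 change of -0.16 (SE 0.16, adjusted p = 0.499). Tpm1 had 533, 583, 575, 513 and 502 in KO cells, against 529, 717, 536, 622 and 544 in WT cells, giving a log2 change of -0.11 (SE 0.09, adjusted p = 0.368). The other kept probe sets of Tpm2 gave -0.14, 0.06 and 0.12, so that they differed in sign, and those of Tpm1 gave -0.22 and -0.11. Mb, the oxygen carrier myoglobin, had 84.6, 81.2, 72.5, 64.1 and 60.5 in KO cells, against 84.5, 64.1, 52.9, 59.1 and 54.8 in WT cells, where KO 6 and WT 1 were again the high arrays. Des, the intermediate filament desmin, had 44.0 to 59.1 in KO and 50.8 to 70.5 in WT cells (log2 change -0.18, adjusted p = 0.164). Actn2, the alpha-actinin of all striated muscle, failed the filter with 14.5 to 18.7 in KO and 15.3 to 22.5 in WT cells.

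Among the 8 smooth muscle genes, all tested, only Acta2 was past the threshold, where 29.2% of all genes were. Acta2, smooth muscle alpha-actin, had 507, 583, 579, 542 and 556 in KO cells, against 735, 659.7, 887, 835 and 695 in WT cells. The groups did not overlap, and the log2 change was -0.44 (SE 0.08, adjusted p = 0.00176). Its probe set carries the suffix of probes that match several transcripts, so a share from other actins cannot be told apart. Myh11, the smooth muscle myosin heavy chain, had 520.3, 799.8, 705, 829 and 794 in KO cells, against 639, 817, 979, 893 and 1065 in WT cells, with KO 6 and WT 1 the lowest of their groups, giving a log2 change of -0.26 (SE 0.15, adjusted p = 0.211). Its dimmer probe set gave -0.10. Myh11 passed without both of those arrays (-0.25, adjusted p = 0.0421) and with them as a block (-0.26, adjusted p = 0.0169).

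The WT arrays were widely spread for Tagln, Myl9 and Cnn1. Tagln, transgelin, had 549.7, 718, 688, 403 and 615 in KO cells, against 410.1, 312, 1005, 932 and 733 in WT cells. WT 1 and WT 2 lay below most KO arrays and WT 3 to WT 5 above all of them, and the log2 change was -0.08 (SE 0.29, adjusted p = 0.87). Myl9, the smooth muscle regulatory light chain, ran from 109 to 181 in KO and from 92.7 on WT 2 to 224 on WT 4, and Cnn1, calponin, from 70.9 to 109 in KO and from 58.7 on WT 1 to 131 on WT 3. Mylk, the kinase that phosphorylates the regulatory light chain, had 285, 245, 273, 218 and 197 in KO cells, against 258, 187, 180.3, 189 and 172 in WT cells. WT 1 was the WT array in the KO range, and the log2 change was 0.28 (SE 0.12, adjusted p = 0.0964); without WT 1 it was 0.32 (adjusted p = 0.0126) and without KO 10 it was 0.35 (adjusted p = 0.0447). It passed with the mean of its probe sets too (0.29, adjusted p = 0.0206). A block for WT 1 and KO 6 gave 0.28, past the threshold at an adjusted p of 0.0194. A second Mylk probe set gave 0.30, with 217 to 271 in KO and 170.2 to 203 in WT cells, groups that did not overlap. Actg2, enteric smooth muscle actin, and Smtn, smoothelin, had log2 changes of 0.19 and 0.04.

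Markers of cells that use smooth muscle genes were set beside them. Their counts are to be read against 16.2% lower and 13% higher over all genes. Each sum runs over all markers of a list on the array, tested or not. Of 15 markers of mural cells and fibroblasts 14 were tested, 5 were higher and 1 was lower, and their summed signal lay between 7665 and 8887 on KO and between 7088 and 8086 on WT arrays. Rgs5, a pericyte gene and the largest part of that sum, had 3744 to 5359 in KO and 4182 to 5070.3 in WT cells (log2 change 0.07). The higher markers were Lum (log2 change 0.86), Notch3 (0.73), Kcnj8 (0.39), Abcc9 (0.33) and Dcn (0.30), and the lower one was Cspg4 (-0.25). Tcf21 failed the filter. Of 10 endothelial markers 9 were tested and 6 were higher, with summed signals of 1105 to 1413 on KO and 674 to 1189 on WT arrays. Among the higher ones, Pecam1 and Emcn were above the filter level on 5 KO arrays and 1 WT array. They thus passed the filter only through the KO group, and their calls are not independent of it. Tie1 failed the filter. Basal epithelial cells, which also hold Acta2 in some glands, had 2 lower and 1 higher of 5 markers tested, with sums of 6998 to 7896 on KO and 5447 to 8195 on WT arrays. Krt14, a basal keratin, had 1315 to 1696 in KO cells, and 1346 on WT 1, 1715 on WT 2 and 2036 to 2416 on the other WT arrays. Krt14 was past the threshold (log2 change -0.42, adjusted p = 0.0436). Krt15, the other lower marker, had 190 to 314 in KO cells, and 346 on WT 1, 432 on WT 2 and 297 to 401 on the other WT arrays (log2 change -0.61, adjusted p = 0.00467). Krt5, the partner keratin of Krt14, went the other way, with 2569 to 3326 in KO and 1320.5 to 2203 in WT cells (log2 change 0.71, adjusted p = 0.00263). Trp63 and Itga6 did not pass. The part of such cells in the smooth muscle signals was not tested. Of 6 leukocyte markers tested, Lyz2 and Csf1r were lower and Itgam and Ms4a1 higher. The sum of all 8 on the array was 3516 to 4521 on KO and 5201 to 5697 on WT arrays. Most of that sum was Lyz2, with means of 3187 in KO and 4291 in WT cells. Summed markers of thymocytes were 495 on KO 6, 864 to 1077 on the other KO arrays and 686 to 963 on WT arrays. Rag1, in that list, had 64.5 on KO 6, 293 to 427 on the other KO arrays and 209 to 299 on WT arrays. None of the 9 thymocyte markers tested was past the threshold. Summed markers of erythroid cells were 208 to 253 on KO and 188 to 245 on WT arrays.

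Outside the 50 genes, 120 others of muscle structure, the neuromuscular synapse, muscle regulation and smooth muscle were read in the same fit. They too were listed with earlier results of these data known. Of 92 tested, 19 were lower and 9 higher, 20.7% and 9.78%. Over all genes 16.2% were lower and 13% higher, and the counts of each list below are to be read against these shares. The strongest fall was of Smtnl1, smoothelin-like 1, with 94.7, 168, 133, 168 and 141 in KO cells, against 654, 594, 714, 688 and 629.6 in WT cells, giving a log2 change of -2.12 (SE 0.12, adjusted p = 3.7e-07). Among 47 other striated genes tested, 13 were lower (27.7%) and 4 higher (8.51%). Csrp3, the muscle LIM protein of the Z-disc, fell, with 49.1, 49.7, 49.5, 68.5 and 46.6 in KO cells, against 119.7, 147, 91.0, 104 and 101 in WT cells (log2 change -0.90, adjusted p = 1.7e-04). Nppa, the atrial natriuretic peptide, picked after its value was seen, fell by 1.22 on the log2 scale (adjusted p = 6.3e-04). Other genes of the list rose. Trim63, the ubiquitin ligase MuRF1, had 226, 259, 294, 272 and 321 in KO cells, against 84.5, 101, 180.4, 133 and 148 in WT cells (log2 change 1.03, adjusted p = 5.4e-04). Pgam2, muscle phosphoglycerate mutase, had 339, 324, 253, 311 and 308 in KO cells, against 126, 202, 145, 151 and 136 in WT cells (log2 change 0.95, adjusted p = 7.1e-05). Smtnl1, Csrp3, Trim63 and Pgam2 each had groups that did not overlap.

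At the neuromuscular synapse 1 of 8 genes tested was lower and 2 were higher. Lrp4, the receptor through which agrin clusters acetylcholine receptors, had 134, 182, 184, 175 and 193 in KO cells, against 231, 239.9, 264, 261 and 241 in WT cells, giving a log2 change of -0.48 (SE 0.09, adjusted p = 0.00168). Chrnb1, the beta subunit of the receptor, had, unlike Chrna1, 119 to 144 in KO and 76.6 to 126 in WT cells (log2 change 0.32, adjusted p = 0.0383), and Colq, the collagen tail of acetylcholinesterase, had 286 to 396 in KO and 257 to 339 in WT cells (log2 change 0.29, adjusted p = 0.0459). Each of these calls failed in 8 of 10 leave-one-out fits, with adjusted p up to 0.0956 for Chrnb1 and 0.11 for Colq. The gamma, delta and epsilon receptor subunits Chrng, Chrnd and Chrne did not pass, with signals between 21.4 and 50.4 in KO and between 20.8 and 50.9 in WT cells.

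Among 19 regulators tested 3 were lower and 1 higher. Pax7 and Pax3, factors of muscle precursors that also act in other lineages, had 47.3 to 70.5 and 26.0 to 35.1 in KO cells and 71.6 to 98.6 and 39.5 to 48.2 in WT cells (log2 changes -0.47 and -0.29, adjusted p = 0.00403 and 0.00722). Mef2b, of the MEF2 family of muscle and lymphoid factors, had 53.6 to 64.7 in KO and 67.9 to 143 in WT cells (log2 change -0.59, adjusted p = 0.00642). Eya1, a coactivator with roles in muscle and in thymus formation, had 607 to 738 in KO and 440.4 to 549.6 in WT cells (log2 change 0.46, adjusted p = 0.00115). For none of these did the groups overlap. Myf5 failed the filter, with at most 8.03 in KO and 9.61 in WT cells. Among 18 other smooth muscle and actomyosin genes 2 were lower and 2 higher. The lower ones were Pdlim7, a PDZ and LIM protein of the actin cytoskeleton, and Ppp1r12b, with log2 changes of -0.50 and -0.33 (adjusted p = 0.0118 and 0.0264). The higher ones were the LIM protein Csrp1 and transgelin-2, Tagln2, with 0.58 and 0.37 (adjusted p = 8.98e-04 and 0.00261). Ppp1r12b, a subunit of myosin phosphatase, lost its call without WT 3, WT 4, WT 5, KO 9 or KO 10 (log2 changes -0.32 to -0.28, adjusted p up to 0.0691).

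**Figure D4:**
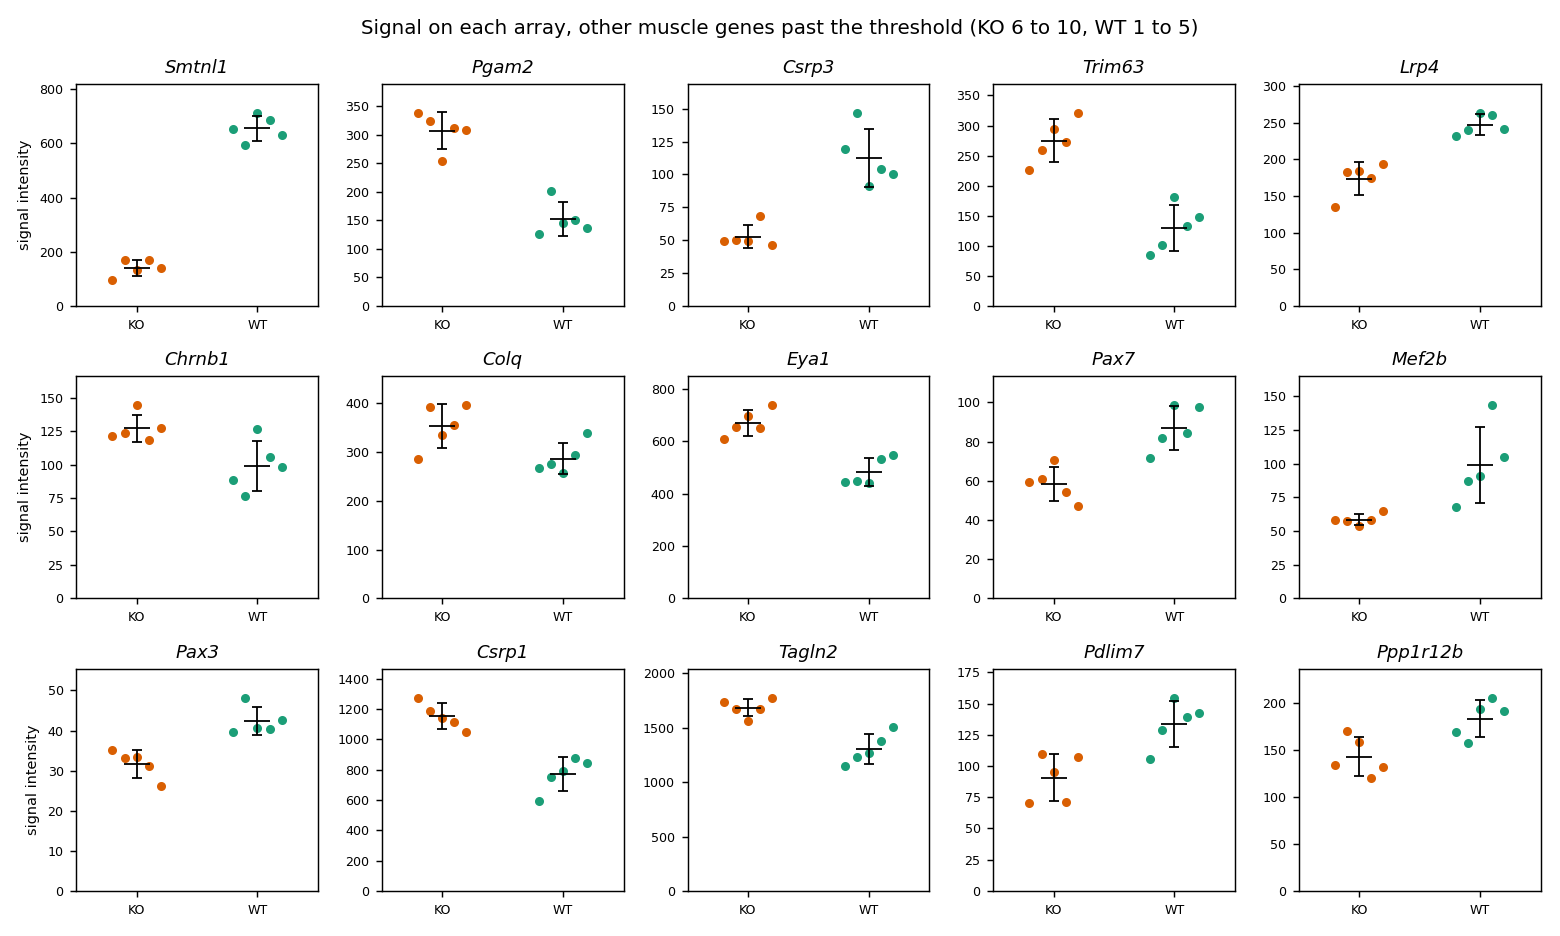
Signal intensity on each array for 15 muscle genes outside the 50, KO arrays 6 to 10 left and WT arrays 1 to 5 right, with the mean and SD of 5 arrays in black and axes from 0. The KO arrays of Smtnl1 lie between 94.7 and 168, far below the WT arrays at 594 to 714, while those of Trim63 and Pgam2 lie above theirs.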

How the data were processed

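Labelled RNA of 10 sorted mTEC samples was hybridised to Affymetrix arrays. Each deposited value is the linear intensity of a probe set, which the authors computed with MAS5, per the submitters' processing notes. The sources used here do not give its version, scaling target or genome build, and detection calls were not used. The number of arrays limits the precision.

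From 45101 probe sets, the 34958 with exactly 1 gene symbol were considered, and symbols were updated through Entrez identifiers to RefSeq GRCm38.p6 (34754 matched). Those above the 40th percentile of their array on at least 5 of 10 arrays were kept (23581), and each gene took its kept probe set with the highest mean, giving 14087 genes. Log2(signal + 16) was fitted with limma 3.58.1 in R 4.3.3 (lmFit, eBayes with trend and robust estimation), KO minus WT, with Benjamini-Hochberg adjustment over all genes and a threshold of 0.05. The procedure was tested on simulated arrays. Members and gene lists were chosen with earlier results of these data known. Array values are given for each member past the threshold and for the 3 brightest others of each class, with up to 4 genes of each other list, those with the smallest adjusted p. Values of other genes were added after they were seen. Of 10 members with several kept probe sets, other probe sets are given except for Mb and Myh1, where they had the same sign. Alternatives tried were quantile normalization and median centring, an offset of 1 or 64, other filters and probe set rules, eBayes without trend, array weights, a threshold of 0.01, blocks for WT 1 with KO 6 and for Xist signal, and arrays left out.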

Additional observations from a re-analysis of the deposited data

Results flagged for a closer look

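Among 88 groups of 5 arrays (44 genes in each genotype), 14 had a highest or lowest array set apart from the other 4 by Dixon's criterion at 95%, where chance gives about 1 in 20. KO 6 accounted for 7 of them and WT 1 for 5. KO 6 was high for Mylpf at 798 (other KO arrays 321 to 415), Acta1 at 518 (119.7 to 160.3), Tnnc2 at 139 (45.9 to 55.8), Tnnt3 at 39.6 (23.5 to 26.9) and Myh7 at 232 (90.5 to 114). KO 6 was low for Mybpc1 at 75.7 (96.0 to 101) and Tnni3 at 55.5 (93.3 to 109.8). WT 1 was high for Myh7 at 206 (other WT arrays 102 to 123) and Mylk at 258 (172 to 189), and low for Tnni1 at 334 (434 to 477), Mybpc2 at 34.9 (57.0 to 63.5) and Tnni3 at 73.9 (130.1 to 140.2). Of the remaining arrays, KO 10 was low for Cnn1 at 70.9 (101 to 109) and WT 3 was high for Tnnt3 at 38.1 (25.0 to 28.1).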

How the results depend on the processing

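No paired analysis was possible because the groups share no replicate number. The 10 lower genes kept their call in each of 14 other settings and 10 fits without 1 array wherever they were tested; of the 4 higher genes only Myl1 did. Of the members, 10 were lower and 4 higher. Without probe sets that may match several transcripts, 8 were lower and 2 higher. This setting left out the suffixes a, s and x alike, whether the transcripts are of the same gene or of others. Myl1, Tnnt1 and Acta2 then had no probe set left to test. At a threshold of 0.01 the number higher was 1. Without WT 1 and KO 6, 14 were lower and 3 higher, with them as a block 12 and 6, and with array weights 13 and 5. Skeletal genes higher numbered 1, against 2, with a filter at the 60th percentile, without those probe sets and at 0.01. Cardiac genes lower numbered 5, against 3, with array weights and without WT 1 and KO 6, and cardiac genes higher numbered 0 without those arrays and at 0.01. Shared genes higher numbered 0 with the mean of probe sets, without the multiply matching ones, at 0.01 and without WT 1 and KO 6. Smooth muscle genes lower numbered 0 without the multiply matching probe sets and 2 without WT 1 and KO 6 or with them as a block; 1 was higher in those last fits, with array weights and with the mean of probe sets. At 0.01, 12 other muscle genes were lower, and 1314 of all genes were lower and 1161 higher; Aire (-0.45, adjusted p = 0.0282) was then not called. Ttn turned to -0.18 (adjusted p = 0.378) without the multiply matching probe sets, being then read from its dimmest kept probe set. That probe set had 16.2 to 40.2 in KO and 22.7 to 36.0 in WT cells. Why the probe sets of Ttn differ was not tested. Without 1 array, the members lower numbered 10 to 13 and higher 1 to 5, skeletal lower 6 to 7 and higher 1 to 2, cardiac lower 3 to 5 and higher 0 to 1, shared higher 0 to 1 and smooth higher 0 to 1. Aire ran from -0.53 to -0.31 and lost its call without WT 3, WT 4 or WT 5.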
